A study of Mus musculus with 18 samples.

Results

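Transcripts of 7 mouse genes were followed in embryonic stem (ES) cells: Msh3, Msh6, Mlh3, Pms1, Pms2 and Exo1 of DNA mismatch repair, and Hmgb1, which encodes a chromatin protein that binds bent DNA. They were taken by symbol, as a set concerned with platinum lesions in DNA. Each had 1 RefSeq protein-coding entry in every long RNA table, so 7 genes were followed of 14620 in the mRNA table and 13719 in the RNAome table, and all 7 passed the filter on low counts in every fit. The treated samples were C57BL/6 ES cells deficient in HPRT, at passage 19-22, given cisplatin at 2.5 µM, a platinum compound that forms crosslinks in DNA. Controls were the same kind of cells given an equal volume of the vehicle DMSO, and both groups therefore lack HPRT. Cells came off feeder-coated plates and spent their last passage on gelatin, and the sources used here do not give the exposure time. RNA of 6 samples, 3 for each treatment, was sequenced as poly(A) RNA (mRNA sequencing) and as fragmented total RNA depleted of rRNA (RNAome sequencing), which gave 12 long RNA libraries. Samples carry the codes 8.3.3, 8.4.3 and 8.5.3 (cisplatin) and 8.4.16, 8.5.16 and 8.6.16 (control). The labels do not say whether the 3 samples of a treatment were separate cultures, so a p-value speaks only of the spread among them, and that spread may be technical. In bulk RNA, fewer cells of a type and less RNA per cell cannot be told apart.

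Mismatch repair removes bases that were paired wrongly during replication. MutS proteins recognise the error: MSH6 serves mainly single mismatches, and MSH3 serves larger loops of unpaired bases. MutL proteins (PMS2, PMS1 and MLH3) are then recruited, PMS2 and MLH3 can nick DNA, and the exonuclease EXO1 removes the stretch that holds the error. A MutS complex with MSH6 also binds platinum crosslinks between neighbouring guanines, and in many cell types loss of mismatch repair makes cells tolerate cisplatin. HMGB1 binds the bend that such a crosslink puts in DNA through its HMG boxes and has been studied as a shield of the lesion. The MutL proteins and EXO1 act after recognition, so the set spans recognition and later steps. The libraries measure RNA and hold no readout of protein or of binding.

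On NCBIM37, the assembly also called mm9, with GENCODE vM1 genes, Msh3 (NM_010829) lies on chromosome 13, 92981836 to 93124958, minus strand. Pms1 (NM_153556, chromosome 1, 53246031 to 53353862, minus strand) starts 77 bases from Ormdl1, a gene of sphingolipid control that runs the other way. Pms2 (NM_008886, chromosome 5, 144670833 to 144698178, plus strand) starts 117 bases from Aimp2, likewise opposed, which encodes a scaffold of the tRNA synthetase complex. The stretches between these starts are shown because each pair of genes shares 1 short piece of DNA, and in the Pms1 pair the member fell after cisplatin while its neighbour was not called. They are given on the plus strand, with capitals for matches to CCAAT or ATTGG (the CCAAT box on either strand) and to GGGCGG or CCGCCC (the GC box).
Pms1 and Ormdl1, chr1:53353863-53353938: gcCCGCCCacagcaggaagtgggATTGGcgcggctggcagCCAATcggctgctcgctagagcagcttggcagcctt
Pms2 and Aimp2, chr5:144670717-144670832: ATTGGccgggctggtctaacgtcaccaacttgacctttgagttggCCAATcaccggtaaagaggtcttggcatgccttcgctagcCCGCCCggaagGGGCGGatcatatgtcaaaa
The gap beside Pms1 held 2 CCAAT matches and 1 GC box match, and that beside Pms2 held 2 of each. RefSeq promoter windows of 300 bases on GRCm38.p6 were listed for 6 of the 7 genes. CCAAT matches were in the windows of Msh6, Mlh3, Pms1, Pms2 and Hmgb1 and in 37.4% of all 32851 windows. GC box matches were in those of Msh3, Msh6, Pms1 and Pms2 and in 35.7% of all windows. The motifs do not overlap one another in the printed stretches, and a match is a description of letters, not of a bound site.

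The libraries held 20365963 to 31604098 counts each in mRNA sequencing and 43404675 to 94373096 in RNAome sequencing. The 7 genes took 226 to 13540 counts per gene and library in mRNA sequencing and 9 to 1680 in RNAome sequencing. RNAome control 8.4.16 was the shallowest library over the tested genes, with 4965593 counts against 6665745 to 19256015 in the others, so values without it are given where they bear on a result. The p53 targets Cdkn1a and Mdm2 rose by 1.16 ± 0.09 and 1.29 ± 0.10 on the log2 scale in mRNA sequencing (SE, edgeR adjusted p = 3.24e-07 and 4.54e-07) and by 1.30 ± 0.26 and 1.14 ± 0.22 in RNAome sequencing (adjusted p = 0.00751 and 0.00689). All 10 ES cell markers were tested in both assays. In mRNA sequencing 7 of them fell and 0 rose by edgeR, while 0 of 10 tested feeder fibroblast markers were called by edgeR (1 at an unadjusted p under 0.05). Of all 13924 tested genes 19.3% were called lower and 18.5% higher, and 6394 had an unadjusted p under 0.05. Summed feeder marker levels were 131.2 to 190.4 CPM with cisplatin and 148.9 to 184.3 CPM in controls, with no counts listed for Lum and Dcn. Acta2 held the most feeder marker counts, 6774 over the 6 libraries, with Col1a1 next at 1588. Trophectoderm markers summed to 145.7 to 161.2 CPM with cisplatin and 110.8 to 139.3 CPM in controls, 3 of 6 tested ones rose, and the defining genes Cdx2 and Elf5 had no counts listed. In RNAome sequencing 0 of the 10 ES cell markers were called by edgeR (5 at an unadjusted p under 0.05), with a median log2 change of -0.44 against -0.005 over all tested genes. Of all 9861 genes tested there 2.05% were called, and 1382 had an unadjusted p under 0.05. Only 1 of the 12 feeder markers was tested there, and it was not called. Of 4 trophectoderm markers tested there, Krt19 rose by 1.26 ± 0.31 (SE, edgeR adjusted p = 0.0365). The part of these shifts in the results on the 7 genes was not tested.

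In mRNA sequencing 4 of the 7 genes fell after cisplatin and 0 rose by edgeR's quasi-likelihood test with Benjamini-Hochberg adjustment over 13924 genes. Of all tested genes 37.8% were called, 18.5% higher and 19.3% lower. Pms1 and Msh3 fell most, and Hmgb1 and Msh6 fell by less. All 7 fold changes were below 0, with a median of -0.16 on the log2 scale against 0.015 over all tested genes. The cisplatin and control libraries did not overlap in 5 of the 7 genes, against 49% of all tested genes. Levels are given as CPM, counts scaled to the library's TMM-adjusted total over the tested genes.

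Msh3 stood at 41.4, 34.6 and 37.4 CPM in cisplatin libraries 8.3.3, 8.4.3 and 8.5.3, against 47.0, 55.2 and 56.1 CPM in control libraries 8.4.16, 8.5.16 and 8.6.16. Every cisplatin library lay below every control library. Cisplatin libraries averaged 37.8 ± 3.44 CPM and control libraries 52.8 ± 4.98 CPM (SD, n = 3 each). The fitted log2 change was -0.49 ± 0.09 (SE, edgeR adjusted p = 0.000437). The other MutS gene, Msh6 (NM_010830, chromosome 17, 88374390 to 88390223, plus strand), had 875.0, 908.8 and 914.9 CPM with cisplatin and 996.0, 954.2 and 1061 CPM in controls. These groups did not overlap either, but the gap was narrow beside the level. The log2 change of Msh6 was -0.16 ± 0.04 (SE, edgeR adjusted p = 0.0118), so that it fell by 10.4% while Msh3 fell by 28.7%. Within each library the count of Msh3 over that of Msh6, which needs no scaling, averaged 0.0421 ± 0.00477 with cisplatin and 0.0526 ± 0.00531 in controls (SD, n = 3 each). The groups just overlapped, since cisplatin 8.3.3 had 0.0474 and control 8.4.16 had 0.0472 (exact two-sided permutation p = 0.2, where 3 against 3 can reach 0.1 at the lowest). A lower level of Msh3 relative to Msh6 was thus not separated from the spread between libraries.

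Of the MutL genes, Pms1 fell and the other two did not pass the test. Pms1 had 24.5, 26.3 and 22.3 CPM in the 3 cisplatin libraries and 39.2, 35.4 and 38.3 CPM in the 3 control libraries. The highest cisplatin library lay well under the lowest control library. The log2 change was -0.62 ± 0.09 (SE, edgeR adjusted p = 5.54e-05), so that Pms1 fell by 34.8%, the largest fall among the 7 genes. Pms2, the MutL gene needed for most mismatch correction, had 37.7, 35.0 and 33.6 CPM with cisplatin and 36.3, 35.5 and 39.1 CPM in controls. These values were interleaved, and the log2 change was -0.06 with a 95% interval of -0.22 to 0.11 (edgeR adjusted p = 0.590). Mlh3 (NM_175337, chromosome 12, 86575479 to 86611541, minus strand), a MutL gene known mostly for meiotic crossing over, had 65.4, 65.9 and 63.9 CPM with cisplatin and 69.9, 69.1 and 70.4 CPM in controls. Its groups did not overlap, yet its log2 change of -0.10 did not pass (95% interval -0.22 to 0.02, edgeR adjusted p = 0.196). The count of Pms1 over that of Pms2 within a library was 0.648, 0.751 and 0.665 with cisplatin and 1.08, 0.996 and 0.981 in controls. All cisplatin libraries were below all controls in this ratio, at the lowest p that 3 against 3 allows (exact two-sided permutation p = 0.1, adjusted p = 0.267 over 8 ratios).

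Exo1 (NM_012012, chromosome 1, 177810909 to 177841527, plus strand) had 73.9, 75.0 and 74.0 CPM in cisplatin libraries and 76.9, 71.0 and 85.9 CPM in control libraries. The cisplatin libraries sat close together inside the range of the controls. The log2 change was -0.07 (95% interval -0.22 to 0.08, edgeR adjusted p = 0.486). Hmgb1 (NM_010439, chromosome 5, 149858278 to 149865089, minus strand) had 97.5, 94.7 and 100.3 CPM with cisplatin and 113.0, 106.0 and 120.7 CPM in controls. Its groups did not overlap, and it fell by 0.22 ± 0.06 on the log2 scale (SE, edgeR adjusted p = 0.0113). That value is uncertain as a value of Hmgb1 alone. The authors deposited a second count table for each assay, the abundance table, and 76.2% of the Hmgb1 counts of the expression table were not in it, while no other member differed by more than 3.43%. Only 1.96% of RefSeq entries had a ratio of the 2 tables as high as that of Hmgb1, and GENCODE vM1 lists 8 Hmgb1 pseudogenes. In the abundance table the log2 change of Hmgb1 was -0.16 ± 0.10 and did not pass (SE, edgeR adjusted p = 0.213), and it also missed the threshold without cisplatin 8.4.3 (adjusted p = 0.0524).

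**Figure D1:**
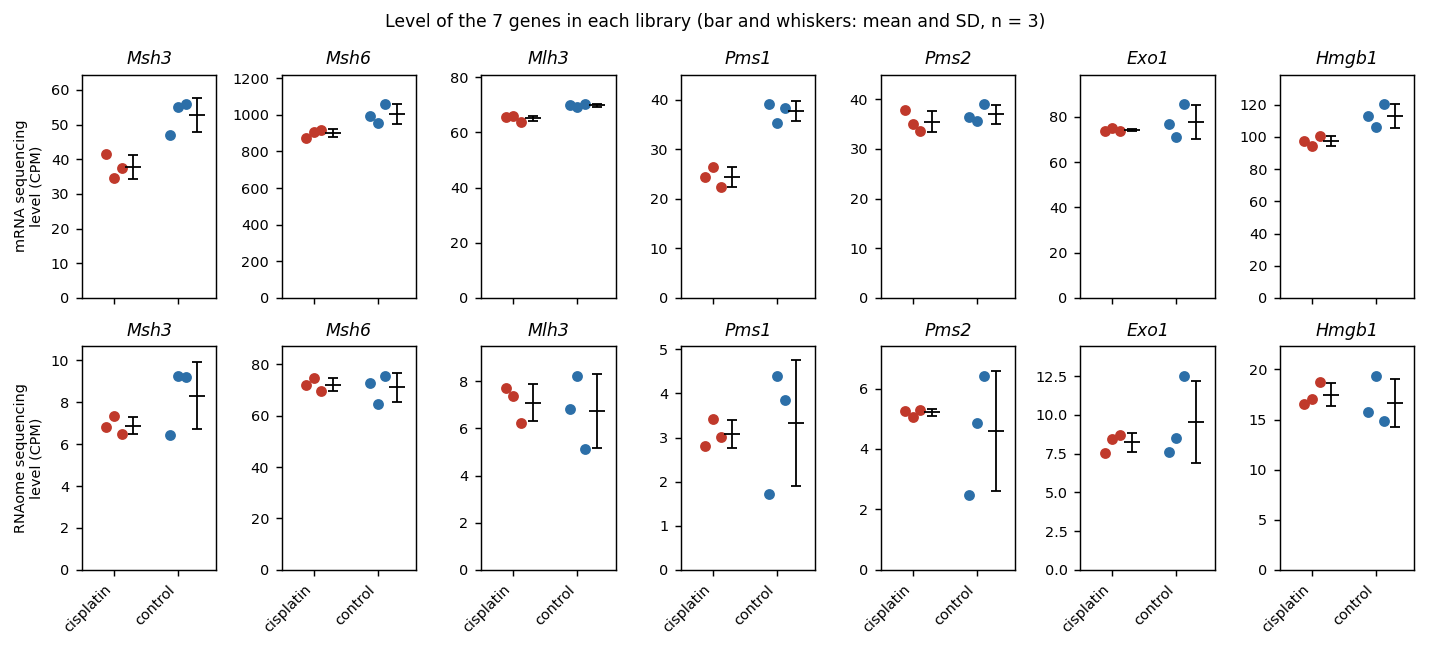
Level of each gene in every library (CPM, axes from 0), mRNA sequencing above and RNAome sequencing below, with cisplatin in red and control in blue, and the mean and SD of 3 libraries beside the points. In mRNA sequencing Pms1 and Msh3 show the widest gaps between the groups, and in RNAome sequencing the groups overlap for all 7 genes.

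The falls of Pms1 and Msh3 passed in each of the 14 alternative fits of the mRNA comparison, with log2 changes of -0.68 to -0.52 and -0.57 to -0.39. Msh6 and Hmgb1 depended on the scaling. With total counts in place of TMM their log2 changes were -0.06 and -0.12 (edgeR adjusted p = 0.287 and 0.129), 2 of the 7 genes were called, and Exo1 and Pms2, not called in either fit, turned to 0.03 and 0.04. That scaling moved the median of all genes to 0.11, and 69.6% of called genes were then higher, against 49.0% with TMM.

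Ormdl1 and Aimp2, which start beside Pms1 and Pms2, were not called in mRNA sequencing. The log2 change of Ormdl1 was 0.01 (95% interval -0.18 to 0.19, edgeR adjusted p = 0.962) and that of Aimp2 was 0.05 (interval -0.08 to 0.18, adjusted p = 0.529). The count of Pms1 over Ormdl1 within a library was 1.06, 1.24 and 1.01 with cisplatin, against 1.77, 1.63 and 1.74 in controls. All cisplatin libraries were below all controls, by a factor of 0.646 between the means (exact two-sided permutation p = 0.1, the lowest possible, adjusted p = 0.267 over 8 ratios). Pms2 over Aimp2 was 0.473, 0.456 and 0.443 with cisplatin, against 0.512, 0.467 and 0.509 in controls, and these groups overlapped (exact two-sided permutation p = 0.2). In the Pms1 pair 1 gene was called and its neighbour was not, and in the Pms2 pair neither was called in mRNA sequencing; the difference between the pairs was not tested. In RNAome sequencing Pms1 over Ormdl1 averaged 1.77 ± 0.0612 in cisplatin libraries and 1.59 ± 0.110 in control libraries (SD, n = 3), above 1 as a factor between the means, at 1.11, and with overlapping groups (exact two-sided permutation p = 0.2). The other 3 ratios overlapped there as well, with factors of 1.34 for Pms2 over Aimp2 and 0.810 for both Msh3 over Msh6 and Pms1 over Pms2 (exact two-sided permutation p = 0.2 to 0.4). The sources used here do not say whether the counting used strand, so reads cannot be assigned in 14733 bases of Pms2 that lie opposite Gm17135, 4275 that it shares with Rsph10b2 on its own strand, or 25 of Msh6 opposite Fbxo11.

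**Figure D2:**
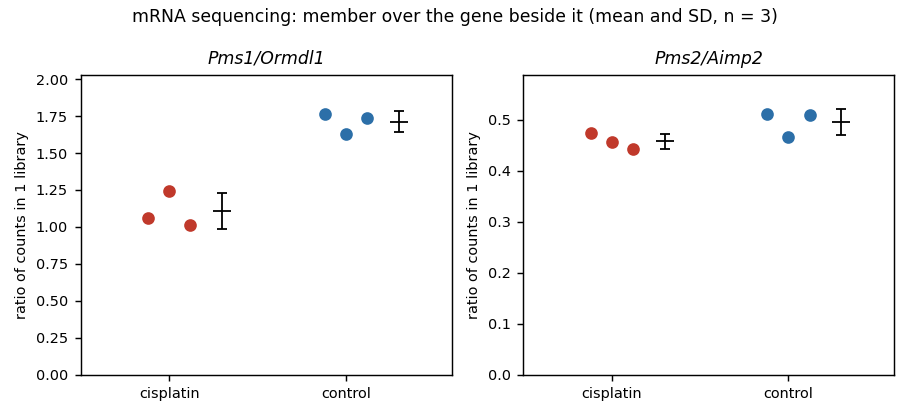
Count of Pms1 and Pms2 divided by the count of the gene that starts beside each, in the same mRNA library, with the mean and SD of 3 libraries. The cisplatin libraries lie below the controls for Pms1/Ormdl1 and overlap them for Pms2/Aimp2.

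Msh3 and Pms1 differ from the other members in the length of DNA they span. Msh3 covers 143.1 kb and Pms1 107.8 kb from first to last annotated base, and the others 6.81 kb (Hmgb1) to 36.1 kb (Mlh3). This feature was looked at after the values were seen. Of 11843 tested genes with a GENCODE span of the same symbol (85.1% of those tested), 1493 spanned 100 kb or more, and 51.4% of these fell while 6.50% rose. Among 3404 genes of 30 to 100 kb 26.9% fell and 16.3% rose, and among 3916 genes of 10 to 30 kb 12.2% fell and 23.2% rose. Below 10 kb 7.13% of 3030 genes fell and 22.1% rose. The median log2 change ran from 0.09 in the shortest genes to -0.33 in the longest, so the falls of Msh3 and Pms1 lie in the class where falls were most frequent. Hmgb1, the shortest member, and Msh6, at 15.8 kb, fell in classes where falls were the less frequent call. In RNAome sequencing, 2.95% of 949 genes of 100 kb or more fell and 0.42% rose. Their median was -0.27, against 0.06 below 10 kb. On mRNA introns 16.5% of 1444 such long genes fell and 3.19% rose, with medians of -0.15 and 0.08.

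**Figure D3:**
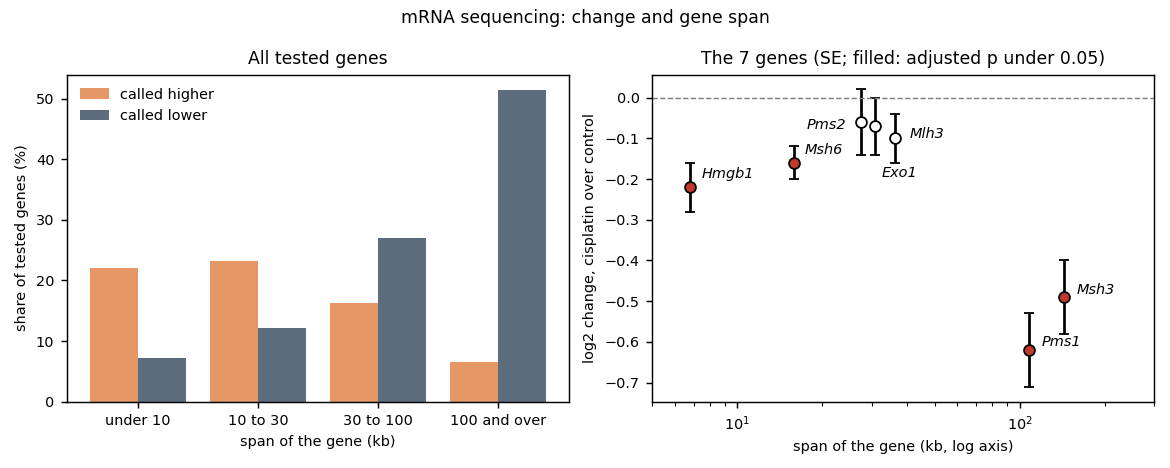
Left, share of tested genes called higher or lower in mRNA sequencing by the span of the gene. Right, log2 change of the 7 genes with its SE against their span on a log axis: Pms1 and Msh3, the members over 100 kb, have the lowest values, while Hmgb1 and Msh6 were called at 6.81 and 15.8 kb.

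RNAome sequencing asked the same question in total RNA, and 0 of the 7 genes were called by edgeR or DESeq2, with 0 at an unadjusted p under 0.05. Over all 9861 tested genes 2.05% were called, 0.984% higher and 1.06% lower, and 1382 had an unadjusted p under 0.05. Msh3 had 6.84, 7.33 and 6.49 CPM with cisplatin and 6.45, 9.28 and 9.21 CPM in controls. Control 8.4.16 lay below all cisplatin libraries and the other two controls above them, and the log2 change was -0.29 (95% interval -0.67 to 0.08, edgeR adjusted p = 0.511). Pms1, the member with the fewest counts, had 2.80, 3.42 and 3.02 CPM with cisplatin and 1.71, 4.40 and 3.86 CPM in controls. The value for control 8.4.16 rests on 9 counts, and the log2 change was -0.19 (interval -0.75 to 0.37, adjusted p = 0.839). Msh6 had 72.2, 74.6 and 69.6 CPM with cisplatin and 72.9, 64.7 and 75.6 CPM in controls, fully interleaved, with a log2 change of 0.02 (interval -0.31 to 0.35). The other 4 genes had log2 changes of -0.24 (Exo1) to 0.11 (Pms2), all with overlapping groups, against non-overlap in 19.2% of all tested genes. Without control 8.4.16 the count of called members stayed at 0 by edgeR. The log2 change of Msh3 was then -0.41 ± 0.16 (SE, edgeR adjusted p = 0.279), that of Pms1 -0.41 and that of Exo1 -0.35. That of Pms2 turned to -0.11, while Msh6, Mlh3 and Hmgb1 were at 0.043, 0.086 and 0.02. With total counts in place of TMM the median of all genes was -0.124 against -0.005, and Msh6, Pms2 and Hmgb1 turned below 0 with no call.

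The RNAome intervals are wide, and those of Msh3, Pms1, Msh6 and Hmgb1 include the mRNA values of -0.49, -0.62, -0.16 and -0.22. For Hmgb1 that holds for the expression table, and 71.3% of its RNAome counts were not in the abundance table. In the abundance table the RNAome log2 change of Hmgb1 was 0.35 ± 0.23 (SE, edgeR adjusted p = 0.542), against -0.16 ± 0.10 in mRNA sequencing, with no call in either. The difference of the treatment effects between the assays was tested as an interaction in 12 libraries. Over 12920 genes it was called for 0% by edgeR (756 at an unadjusted p under 0.05). DESeq2 gave an adjusted p to only 3762 genes and called 4 of these higher and 16 lower. Neither fit used the pairing of the 2 libraries of a sample code. With that code as a block edgeR called 0 genes higher and 11 lower. None of the 7 genes was called by edgeR with or without the block, and without it none had an unadjusted p under 0.05. DESeq2 called none of the 5 members to which it gave an adjusted p, and it gave none to Pms1 and Pms2. In the expression tables the largest difference, RNAome minus mRNA, was that of Pms1 at 0.41 ± 0.25 on the log2 scale (SE, 95% interval -0.10 to 0.93), and 6 of the 7 differences were above 0. In the abundance tables that of Hmgb1 was larger, at 0.49 ± 0.23 against 0.39 ± 0.25 for Pms1 (SE), with no call. In the expression tables without RNAome control 8.4.16, the difference of Pms1 was 0.14 and that of Msh3 0.009, while those of Pms2 and Exo1 were -0.12 and -0.35. In that fit edgeR again called none of the 7 genes, and over all genes it called 2 higher and 32 lower. That the falls seen in poly(A) RNA were missing from total RNA was therefore not shown, nor that they were present there.

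Counts on introns, a readout that the choice of transcripts did not use, were tested for all 7 genes. In mRNA sequencing 0 of 7 were called by edgeR or DESeq2, against 13.7% of 8734 genes by edgeR (7.45% higher and 6.22% lower). Msh3 alone of the 7 had an unadjusted p under 0.05, as did 2248 of the 8734 genes. The groups overlapped for all 7 genes, while they did not for 28.9% of all genes. The Msh3 introns had 139.3, 145.0 and 169.8 CPM with cisplatin and 162.0, 185.8 and 170.8 CPM in controls, on the scale of intron counts. Cisplatin 8.5.3 overlapped the controls, and the log2 change was -0.20 ± 0.09 (SE, edgeR adjusted p = 0.156). Pms1 introns had 55, 48 and 36 counts in cisplatin libraries and 36, 57 and 57 in controls, which leaves a wide interval of -0.53 to 0.21 around a log2 change of -0.16. In RNAome sequencing 0 of 7 were called by edgeR or DESeq2, against 1.03% of 6133 genes by edgeR (0.669% higher and 0.359% lower). An unadjusted p under 0.05 was seen for 0 of 7, against 744 of the 6133 genes. Exo1 introns were the only ones there with groups that did not overlap, which 17.3% of all genes showed. They had 2.83, 2.87 and 2.80 CPM with cisplatin and 3.46, 3.33 and 3.91 CPM in controls, and their log2 change of -0.33 did not pass (95% interval -0.70 to 0.04, edgeR adjusted p = 0.477). Of their 457 counts over the 6 libraries, 271 (59.3%) came from 1 intron of 1694 bases, chr1:177811332-177813025.

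In mRNA sequencing the intron counts of Msh3 and Mlh3 came almost wholly from 1 intron each. The Mlh3 intron at chr12:86591324-86600142 held 6433 counts over the 6 libraries, 98.4% of the gene's intron counts and more than the 4815 on its transcript. The Msh3 intron at chr13:93070314-93079399 held 2123 counts, 97.5% of its total. In RNAome sequencing the intron with the most counts held 92.1% for Mlh3 and 65.5% for Msh3. The abundance table kept 1023 and 249 of these counts, so 84.1% and 88.3% were in the expression table alone. The RefSeq gene table of GRCm38.p6 lists 1 pseudogene within the span of Mlh3, 1 within that of Msh3 and 0 within those of the other 5 members. With the abundance table the Msh3 intron change was 0.08 ± 0.17 on the log2 scale (SE), the other way from the value above, with no call. The intron values of these 2 genes thus rest mostly on counts that the 2 tables treat differently.

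**Figure D4:**
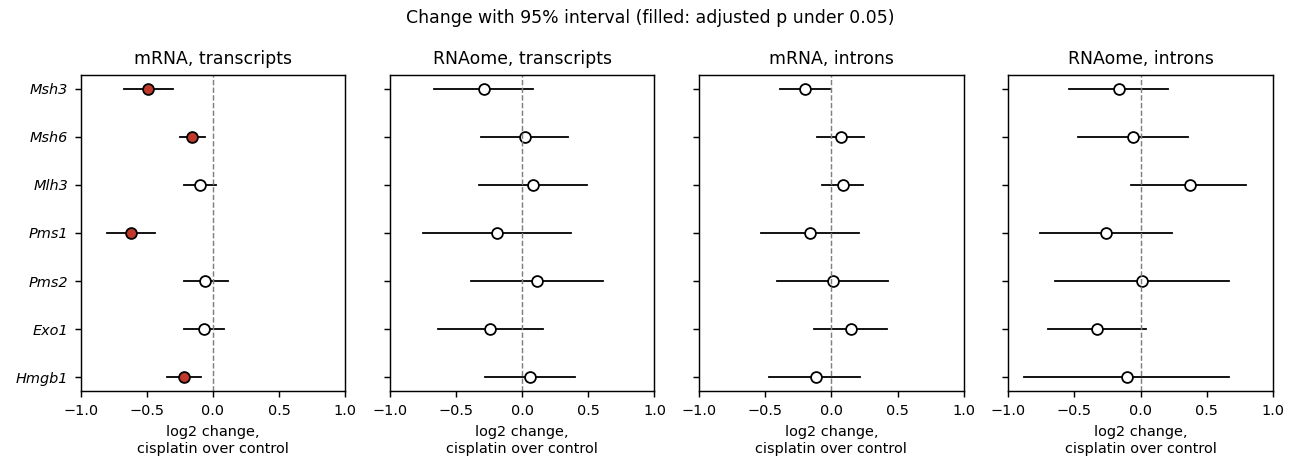
Log2 change, cisplatin over control, with its 95% interval for the 7 genes on transcripts and on introns in both assays, where filled points have an edgeR adjusted p under 0.05. Filled points are limited to Msh3, Msh6, Pms1 and Hmgb1 on transcripts in mRNA sequencing, and every other interval but that of the Msh3 introns in mRNA sequencing includes 0.

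Relative to the other genes, 6 of the 7 were higher in RNAome than in mRNA sequencing, in a fit of the 12 libraries with treatment as covariate. Over 12920 genes 66.7% were called, 32.3% higher and 34.4% lower. Msh3 was 2.24-fold higher in RNAome sequencing, a log2 difference of 1.16 ± 0.09, and Hmgb1 2.11-fold, at 1.08 ± 0.08 (SE, edgeR adjusted p = 3.20e-11 and 5.28e-12). Pms2 followed at 0.86 ± 0.11, Exo1 at 0.59 ± 0.09, Pms1 at 0.54 ± 0.13 and Mlh3 at 0.44 ± 0.09, all called. Msh6 stood at -0.04 ± 0.09 and did not pass (adjusted p = 0.668). The same 6 members were called with the sample code as a block, in the abundance tables and without each library in turn.

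**Figure D5:**
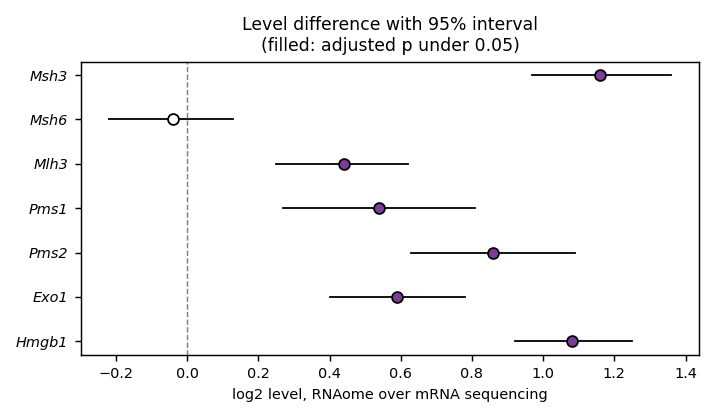
Log2 level of each gene in RNAome over mRNA sequencing with its 95% interval, from the fit of 12 libraries. Msh6 lies at 0 within its interval, and the other 6 genes lie between 0.44 and 1.16.

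Per kb of transcript Msh6 was by far the most abundant member. It stood at 211.5 ± 5.06 CPM per kb in cisplatin libraries and 236.0 ± 12.7 CPM per kb in control libraries of mRNA sequencing (SD, n = 3 each), with Hmgb1 next at 34.4 ± 0.983 with cisplatin and 39.9 ± 2.59 in controls. That second place rests on counts outside the abundance table, which leaves Hmgb1 at 8.33 ± 0.293 CPM per kb with cisplatin and 9.28 ± 1.17 in controls on the same scaling, above Pms2 alone in controls and above Pms2 and Pms1 with cisplatin. In controls Exo1 stood at 14.2 ± 1.36, Msh3 at 13.4 ± 1.26, Mlh3 at 12.9 ± 0.126 and Pms1 at 12.3 ± 0.655 CPM per kb, and each neighbouring pair differed by less than the larger of its SDs. With cisplatin the order of these 4 was Exo1 at 13.5 ± 0.107, Mlh3 below it, Msh3 at 9.58 ± 0.872 and Pms1 at 7.98 ± 0.653 CPM per kb. Pms2 was lowest, at 6.47 ± 0.384 CPM per kb with cisplatin and 6.75 ± 0.342 in controls. That place rests on the annotated transcript length, 5482 bases with 2577 coding for Pms2, against 3054 with 2751 coding for Pms1. Before division by length, Pms2 and Pms1 stood at 37.0 and 37.6 CPM in controls. The order per kb was not tested with other lengths. In RNAome sequencing Msh6 stood at 17.0 ± 0.592 CPM per kb with cisplatin and 16.7 ± 1.33 in controls, Hmgb1 at 6.15 ± 0.400 with cisplatin and 5.88 ± 0.842 in controls, and the other 5 genes at 0.837 to 2.11 CPM per kb. There the abundance table leaves Hmgb1 at 1.87 ± 0.136 with cisplatin and 1.40 ± 0.491 in controls, within the range of those 5.

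Calls among genes that work beside the members are set against the 37.8% of all tested genes called in mRNA sequencing. Of 14 genes of the sliding clamp, its loader, replication protein A, polymerase delta and ligase 1, which fill and seal the gap that EXO1 leaves, 1 rose and 2 fell in mRNA sequencing, with a median log2 change of -0.04. Pold4, the small subunit of polymerase delta, rose by 1.13 ± 0.20 (SE, edgeR adjusted p = 0.000542), while Rfc1 of the clamp loader stood at -0.25 ± 0.05 and Rpa1 at -0.17 ± 0.04. Of 7 accessory genes and meiotic MutS homologs 2 rose and 2 fell, with a median of -0.12. The nuclease gene Fan1 rose by 0.46 ± 0.11 and the glycosylase gene Mbd4 by 0.29 ± 0.08, while the helicase gene Mcm9 stood at -0.52 ± 0.13 and the histone methyltransferase gene Setd2 at -0.16 ± 0.05. Among 8 genes of other HMG proteins and proteins that bind platinated DNA, 4 were called lower and 0 higher by edgeR, and the list's median was -0.20. They were Hmgb3 at -0.50 ± 0.09 and Hmgb2 at -0.38 ± 0.04, the close relatives of Hmgb1, Ubtf at -0.28 ± 0.05 and Supt16 of the FACT complex at -0.19 ± 0.04. Hmgb2 had 543.7, 539.3 and 566.6 CPM with cisplatin and 725.9, 729.7 and 696.4 CPM in controls, with no overlap. Of 18 S phase genes 2 rose and 3 fell, with a median of 0.00, namely Rrm2 (0.31 ± 0.06) and Ccne2 (0.22 ± 0.08) higher and Mcm6 (-0.25 ± 0.04), Mcm3 (-0.17 ± 0.04) and Mcm2 (-0.12 ± 0.04) lower. In RNAome sequencing 0 genes of these 4 lists were called by edgeR, with 2 of the 13 tested in the clamp and resynthesis list at an unadjusted p under 0.05. Of all 9861 genes tested there 2.05% were called, and 1382 had an unadjusted p under 0.05.

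The members did not move as 1 group from library to library. After centring log2 CPM within each assay, Pearson's r over the 12 libraries, which come from 6 samples and share treatment and depth, ran from 0.81 between Msh3 and Pms1 to -0.68 between Mlh3 and Exo1. Among 9718 genes tested in both assays, the genes most like Pms1 were U2af1 and Smu1 (r = 0.96 each), and those most like Msh3 were Bmerb1 (0.94) and Tars (0.93). For Msh6 they were Srsf2 (0.96) and Wwp2 (0.90), for Mlh3 Gnai3 (0.93) and Timm10 (0.92), and for Pms2 Pinx1 and Thap4 (0.98 each). Exo1 was most like Mrto4 (0.95) and Cenpn (0.93), and Hmgb1 most like Nop14 and Rab5a (0.90 each). No gene stood next to 2 members by this measure. The centred values were not scaled, so the assay in which a gene varied more weighs more in its r. Pms2 ran from 2.47 CPM (control 8.4.16, 13 counts) to 6.43 CPM in RNAome sequencing. In mRNA sequencing it ran only from 33.6 to 39.1 CPM. Msh6 had no such gap, at 64.7 to 75.6 CPM in RNAome and 875.0 to 1061 CPM in mRNA sequencing.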

How the data were processed

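Raw read counts per RefSeq transcript and genomic region were deposited by the authors, without normalization, per the file headers and values. Bowtie, TopHat, edgeR and build mm9 are named in the submitters' processing notes, while the sources used here do not give the counting rule, annotation or filters. The members and lists were chosen with earlier results of these data known. The entry with the highest mean CPM was kept for each gene. The tests used edgeR 4.0.16 under R 4.3.3 (TMM, filterByExpr, quasi-likelihood test, two-sided, Benjamini-Hochberg over all tested genes, adjusted p under 0.05), after the fits were tested on simulated data. SE is the absolute log2 change divided by the square root of F. Region rows that coincide with GENCODE vM1 introns were summed per gene. Levels per kb used the transcript with the longest coding sequence. Genes named were the 7 members, start neighbours, up to 6 called genes per list by adjusted p, Cdkn1a, Mdm2 and the 2 most similar genes per member. Similarity used log2(CPM + 0.5). DESeq2 1.42.0, other scalings, filters, tables and rows, a replicate block and libraries left out were alternatives. Each sample code names 1 RNA sample in both assays, and libraries of a code deviated together (r = 0.0694 to 0.253).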

Additional observations from a re-analysis of the deposited data

How the results depend on the processing

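Of 588 refits of a member's change, 550 kept its direction and its side of the threshold. With total counts in place of TMM 2 members were called in mRNA sequencing, and no other setting moved a count of called members by over 1.5 times. The middle number of the title code, which occurs as 4 and 5 in both groups, gave correlations of 0.116 and 0.159 in mRNA and -0.0967 and 0.0843 in RNAome sequencing. That is 2 pairs per assay, and the labels do not say what the number marks, so samples were taken to share only a number. As a replicate block it gave 4 called members in mRNA sequencing and 0 in RNAome sequencing, and over all genes 3102 higher and 3291 lower against 2582 and 2687 in mRNA sequencing. The sample code as a replicate block changed no member's call between the assays. Signs turned, with no call in either fit, as follows, and the cause was not tested. With that block by title number, mRNA Exo1 was at 0.012, RNAome Mlh3 at -0.16, Pms1 at 0.091 and Exo1 at 0.086, mRNA introns of Pms2 at -0.076 and RNAome introns of Msh6 at 0.13. With total counts, mRNA Pms2 and Exo1 were at 0.037 and 0.028, and RNAome Msh6, Pms2 and Hmgb1 at -0.12, -0.008 and -0.046. In the abundance table the mRNA introns of Msh3 and Pms2 were at 0.077 and -0.006, and RNAome introns of Pms2 at -0.011. Pms2 introns were at -0.034 (mRNA) and -0.015 (RNAome) by DESeq2, at -0.01 (mRNA) with no filter, and at -0.041 (RNAome) with the scaling of RefSeq genes.

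Without 1 library in turn, 3 to 4 members were called in mRNA sequencing, 0 in RNAome sequencing and 6 in the level comparison. Signs turned for uncalled changes, over these ranges. In mRNA sequencing Exo1 ran from -0.14 to 0.005. In RNAome sequencing Msh6 ran from -0.044 to 0.069, Mlh3 from -0.10 to 0.29, Pms1 from -0.41 to 0.045, Pms2 from -0.11 to 0.40, Exo1 from -0.35 to 0.009 and Hmgb1 from -0.029 to 0.19. The difference between assays ran from -0.082 to 0.37 for Mlh3 and from -0.12 to 0.34 for Pms2. For introns the ranges were -0.21 to 0.17 for Pms2 in mRNA sequencing, and in RNAome sequencing -0.20 to 0.085 for Msh6, -0.15 to 0.14 for Pms2 and -0.21 to 0.039 for Hmgb1. Over all genes the calls in RNAome sequencing moved from 97 higher and 105 lower to 6 and 35 with total counts, 55 and 98 by DESeq2 and 47 and 81 with the block, and those on mRNA introns from 651 and 543 to 285 and 233 by DESeq2. Those on RNAome introns moved from 41 and 22 to 16 and 10 with the scaling of RefSeq genes, 9 and 7 by DESeq2, 12 and 9 with the block. Pms1 had 9 to 77 counts per library in RNAome sequencing.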

Other observations

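Among the rows of the small RNA tables that are named for mRNAs, 3640 in the RNAome small RNA table and 292 in the small RNA sequencing table, Msh6 alone of the 7 genes had one, as a fragment row of the RNAome table. It held 20, 24 and 11 counts in cisplatin libraries 8.3.3, 8.4.3 and 8.5.3 and 7, 8 and 12 counts in control libraries 8.4.16, 8.5.16 and 8.6.16. Scaled to the total of that table (CPM) these were 4.43, 9.65 and 4.80 with cisplatin and 2.83, 2.47 and 7.56 in controls. Control 8.6.16 lay inside the range of the cisplatin libraries, so the groups overlapped, and no test was run.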
